A study of Mus musculus with 14 samples.

Results

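Neuropeptide precursor genes encode the large proteins from which neurons cut small signalling peptides. The 10 genes described here are Trh, Penk, Pdyn, Tac1, Tac2, Crh, Adcyap1, Nts, Grp and Cartpt, out of 18722 genes with a value in at least 1 library of mouse hippocampus. Members were found by gene symbol. By symbol, 9 of the 10 had a row in the authors' deposited comparison tables of 81411 loci each, and the exons of Grp lay under a row that carries the symbol Rax. In the assembled transcripts of the single libraries, all 10 were found on their annotated exons, 9 of them in all 14 libraries and Trh in 6. The set was chosen by the value of Trh, which the authors' deposited tables list as low in vehicle mutants beside vehicle wild types; the others were listed with it as precursors of the same kind. For Trh the differences that use the vehicle wild types or the vehicle mutants are therefore given as description, with no test added. The authors' own q-values for them are copied as part of what chose the set and support nothing.

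RNA came from the hippocampus of C57BL6 mice whose labelled age was 30 days. The mice were wild type or carried 1 KMT2D+/bGeo allele, a gene trap in the H3K4 methyltransferase gene Kmt2d. From 2 weeks of age they received, for 2 weeks and by gavage, either methylcellulose vehicle or TAK-418 at 1 mg/kg/day in it; TAK-418 blocks LSD1, which removes methyl groups from histone H3 lysine 4. The groups were 3 vehicle wild types, 3 vehicle mutants, 5 treated wild types and 3 treated mutants by the labels, although the series description states 3-4 mice per group. Whether the 5 treated wild-type libraries are 5 mice is therefore uncertain, and with it the errors and p-values that use them. Every group, including the controls, was gavaged, and the labels name no Cre or tissue-specific driver for the allele.

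Neurons store peptides in dense core vesicles, where prohormone convertases cut the precursor and further enzymes trim and amidate the ends. The peptides then act on G protein-coupled receptors, mostly more slowly and over longer distances than glutamate or GABA. In the hippocampus, enkephalin and dynorphin are best known from granule cells and their mossy fibres, and several other precursors from sparse interneurons or from incoming axons. In bulk tissue, fewer cells of a type and less RNA per cell cannot be told apart.

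Levels are the abundance of a gene's assembled transcripts, scaled between libraries, on the scale of fragments per kilobase of transcript and library size (FPKM). A level of 0 means only that no transcript of the gene was assembled, and low expression may be missed. Treated wild type 1 had the greatest relative depth, 167.7 M (mega) reads or fragments, and the other 13 libraries had 35.1 to 59.85 M, and the libraries held 33819 to 48428 transcripts. Kmt2d, the check of the labels, was at 13.8 to 14.2 in vehicle wild types, 10.6 to 14.4 in vehicle mutants, 12.5 to 17.99 in treated wild types and 9.34 to 14.6 in treated mutants. The genotypes overlapped in Kmt2d in both treatments. The defining hippocampal field markers were present throughout, with a summed level of 801 to 902 over 13 genes. Choroid plexus genes, 12 in the list, stood apart: their sum was 6528 in vehicle wild type 3, 5098 in vehicle mutant 1, 924 in vehicle mutant 3 and 618 in treated mutant 1, against 19.6 to 48.9 in the other 10 libraries. The labels do not state outright that each library is a separate mouse, so p-values measure only the spread between these libraries, which may be technical. The protocol names a pair of library kits, NEBNext Ultra and its version II, without assigning them to libraries, so a kit batch could not be checked.

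Promoter and exon sequences are shown first, because 5 of the 7 members with a RefSeq promoter window share a short motif and 2 members are spliced into forms that differ by a few codons. The motif is the core of the cyclic AMP response element, TGACG or its reverse complement CGTCA, which the activity-dependent factor CREB recognises. It lay within 250 bases upstream of the annotated start of Trh, Tac1, Adcyap1, Nts and Cartpt, and 17.8% of all 32851 RefSeq windows of that length hold it on either strand. The full palindrome TGACGTCA, which contains the core on both strands, was found for Cartpt only among the 7 members and in 1.55% of windows. The AP-1 motif TGANTCA was found for Nts only, against 6.75% of windows, and TATAA or its reverse complement for Trh and Adcyap1, against 22.8%. Pdyn and Tac2 had windows without the core, and Penk, Crh and Grp were not matched. A match is a description of letters and not of binding.

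The following stretches of 100 bases read 5′ to 3′ on the gene's strand, from RefSeq on GRCm38.p6, with the core in capitals. They lie at chr6:92244695-92244794 on the minus strand for Trh, chr6:7554961-7555060 on the plus strand for Tac1, chr10:102490533-102490632 on the minus strand for Nts and chr13:99900744-99900843 on the minus strand for Cartpt. The core begins 96, 43, 166 and 112 bases upstream of the start, in that order. In the palindrome of Cartpt only TGACG is in capitals, and the overlapping CGTCA is not marked. The Tac1 window holds 2 cores, of which the nearer to the start is shown. The stretches of Adcyap1 are not shown.
Trh: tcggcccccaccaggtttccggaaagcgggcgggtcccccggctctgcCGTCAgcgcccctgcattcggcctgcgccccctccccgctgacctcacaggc
Tac1: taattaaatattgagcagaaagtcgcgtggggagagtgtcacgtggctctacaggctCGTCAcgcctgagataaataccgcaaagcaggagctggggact
Nts: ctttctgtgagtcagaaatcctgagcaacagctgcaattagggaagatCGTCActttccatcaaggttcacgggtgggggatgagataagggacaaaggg
Cartpt: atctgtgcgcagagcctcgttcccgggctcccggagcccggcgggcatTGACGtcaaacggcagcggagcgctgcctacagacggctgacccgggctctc

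The members covered a wide range of levels. Grp, the precursor of gastrin-releasing peptide, and Penk, the precursor of the enkephalins, were highest, at 24.1 ± 3.73 and 20.7 ± 2.99 (mean ± SD, n = 14 libraries). Tac1 followed at 10.3 ± 1.59 and Pdyn at 7.93 ± 0.592. Next came Tac2 at 4.06 ± 0.930, Cartpt at 3.71 ± 0.947, Adcyap1 at 3.32 ± 0.655, Nts at 2.65 ± 1.22 and Crh at 2.31 ± 0.385. Trh was the lowest and was listed at 0 in 8 libraries. Neighbours in this order overlapped in their ranges over libraries, apart from Penk above Tac1 and Pdyn above Tac2. Tac1 exceeded Pdyn in 14 of 14 libraries although their ranges overlapped.

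**Figure D1:**
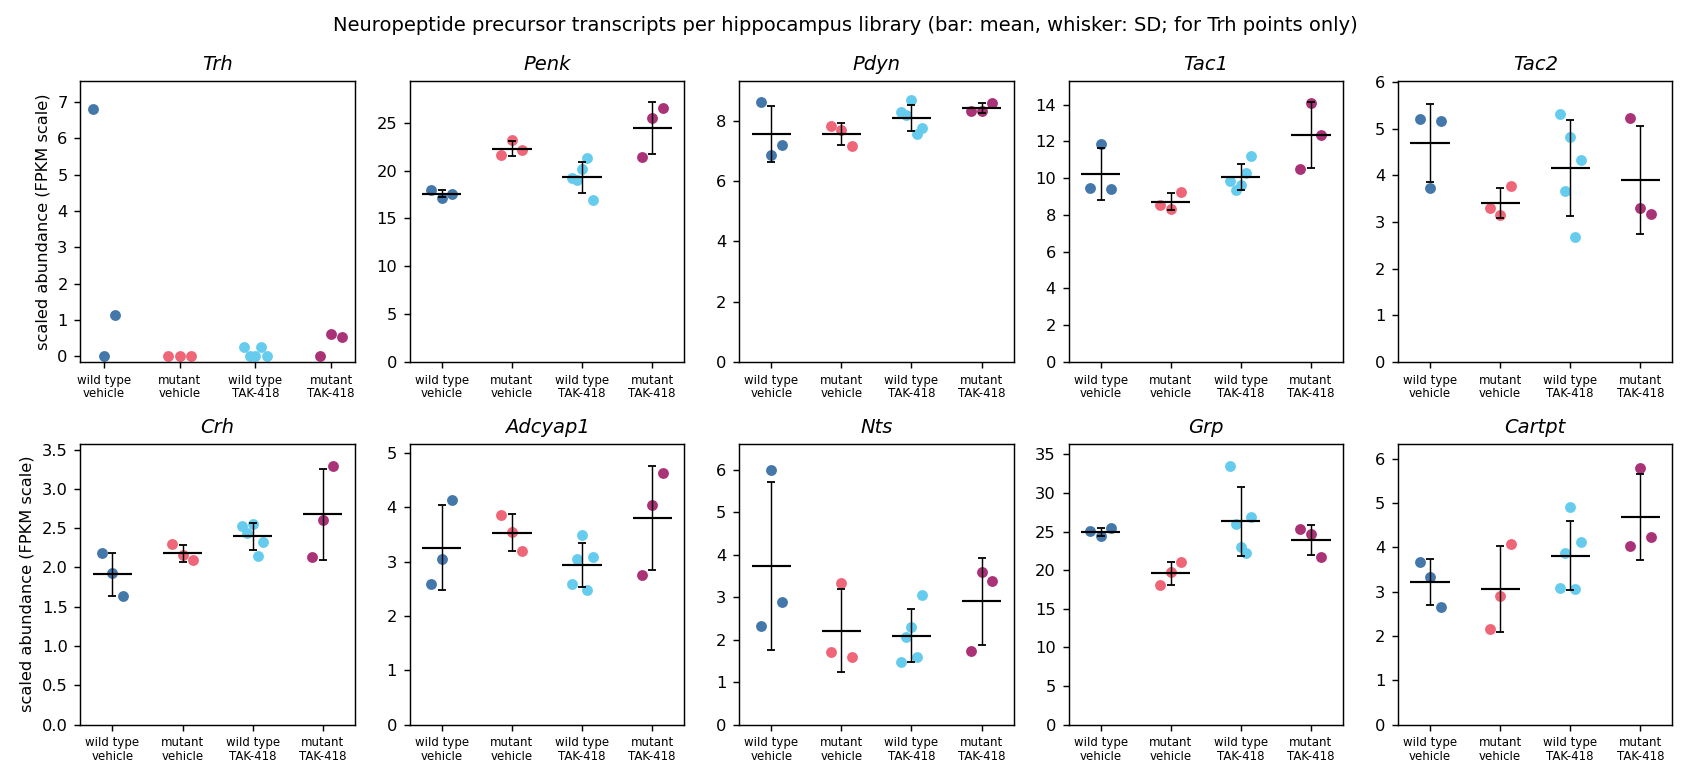
Scaled abundance (FPKM scale, linear axis) of the 10 precursors in each library, by group; points are libraries, bars the group mean and whiskers the SD, with points only for Trh. Penk is higher in each mutant group than in the wild types of the same treatment, and the Trh panel is dominated by 1 vehicle wild type at 6.81.

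Trh encodes the precursor of thyrotropin-releasing hormone, the hypothalamic tripeptide that drives the pituitary-thyroid axis and that is also made by neurons elsewhere in the brain. The gene lies at chr6:92242061-92244650 on the minus strand of GRCm38, with 3 exons and 1384 exonic bases. Its level was 6.81, 0 and 1.15 in the 3 vehicle wild types and 0 in each of the 3 vehicle mutants. It was 0.249, 0, 0, 0.263 and 0 in the 5 treated wild types, and 0, 0.607 and 0.532 in the 3 treated mutants. One library therefore held most of the signal, and each of the other groups overlapped the vehicle wild types. The assembled transcript of vehicle wild type 1 had 3 exons and 1257 bases, a length of 90.8% of the annotated exonic bases. In the other 5 libraries that list the gene the transcript lengths were 14.1% to 72.8% of that total. The lengths were not checked for overlap with the annotated exons.

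For vehicle mutants over vehicle wild types, the authors' deposited table gives Trh a group FPKM of 0.168 against 1.93, with a log2 fold change of -3.52 and a q of 0.0270. The value for vehicle mutants is above 0 in that authors' deposited table although no Trh transcript was assembled in any of the 3 libraries. For treated mutants over vehicle wild types, the authors' deposited table lists 0.260 against 1.95, a log2 fold change of -2.91 and a q of 0.0185. Both tables use the same vehicle wild-type libraries, and the 2 q-values belong to the choice of the set, so nothing is read from them. No other member matched by symbol had a q under 0.05, and the locus over the exons of Grp is described with Grp. Of all tested loci, 0.224% were called in the first of these tables and 0.324% in the second. In the comparison without vehicle wild types, treated mutants over treated wild types, the authors' deposited table lists 0.257 against 0.115, with a q of 0.808, and 0.218% of its loci were called. For vehicle mutants over treated wild types the authors' deposited table marks Trh as not tested and lists 0.169 and 0.114.

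Over the libraries, the change of Trh from vehicle to treated wild types was -1.28 on the log2(value + 0.9) scale, and -0.45 without vehicle wild type 1. Vehicle wild type 1 was not among the libraries with high choroid plexus genes, and its relative depth was 44.8 M. Of 11 hypothalamic markers, Hcrt, Sim1 and Otp were at 0 in all 14 libraries, and the summed level of the list was 3.97 in vehicle wild type 1 and 3.02 to 29.6 over all. Most of that spread was Nkx2-1, at 0.524 in vehicle wild type 1 and up to 26.0 elsewhere. The other 10 markers summed to 3.45 in vehicle wild type 1, within the 3.02 to 6.496 of all libraries. Of that 3.45, Gal gave 1.42 and Hcrtr2 1.33, and both were listed in all 14 libraries. Whether hypothalamic tissue was present was not tested. By group Nkx2-1 was at 0.524 to 22.6 in vehicle wild types, 11.7 to 26.0 in vehicle mutants and 0 to 16.1 in treated wild types, and at 0 in all treated mutants. The immediate early gene sum was 203 in vehicle wild type 1, 291 in vehicle wild type 2 and 281 in vehicle wild type 3. Of these sums Junb gave 0, 34.3 and 27.3 in that order, and Junb was listed in only 7 of the 14 libraries.

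**Figure D2:**
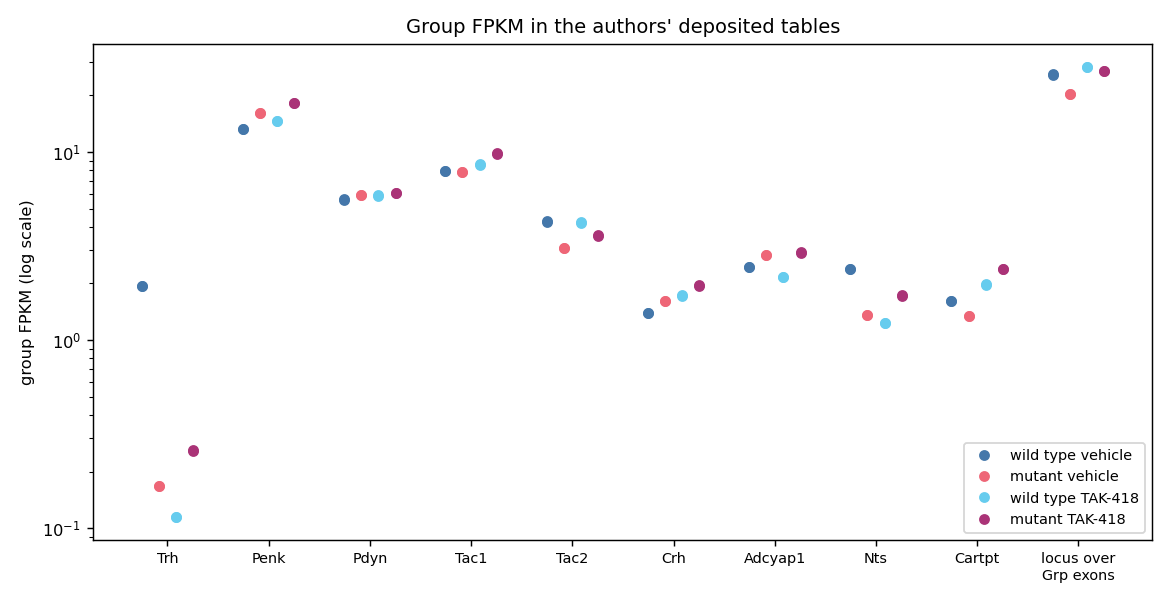
Group FPKM (log axis) from the authors' deposited tables for the 9 members matched by symbol and for the locus over the exons of Grp; each point is 1 group value, and values of a group from different tables nearly coincide. Trh in vehicle wild types, near 1.93, stands above the other 3 groups by more than the groups of any other locus shown differ from each other.

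Penk was the member whose mutant and wild-type libraries did not overlap in either treatment. It encodes proenkephalin, which yields the opioid peptides Met- and Leu-enkephalin, and lies at chr4:4133531-4138819 on the minus strand. Its level was 17.9, 17.2 and 17.6 in the vehicle wild types and 21.6, 23.2 and 22.1 in the vehicle mutants. Under TAK-418 it was 19.2, 19.1, 20.2, 21.3 and 16.9 in wild types and 21.4, 25.5 and 26.5 in mutants. In both treatments every mutant library was above every wild-type library, by a narrow margin under TAK-418, where the lowest mutant was at 21.4 and the highest wild type at 21.3.

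Mutants exceeded wild types in Penk by 0.33 ± 0.0853 (log2, ± SE) under vehicle (limma adjusted p 0.627), and by 0.33 ± 0.0763 under TAK-418 (limma adjusted p 0.759). Without the 2 libraries with most choroid plexus RNA, vehicle wild type 3 and vehicle mutant 1, the difference under vehicle was 0.35. Neither treatment passed the threshold of 0.05 after adjustment over all 16568 genes tested. Groups that do not overlap, in either direction, made up 8.91% of all genes under vehicle and 4.57% under TAK-418, the background against which Penk is to be read. Treated mutants exceeded vehicle wild types by 0.45 ± 0.0853, with a limma adjusted p of 0.236. Vehicle mutants exceeded treated wild types by 0.20 ± 0.0763, with a limma adjusted p of 0.456, and in that pair too the groups did not overlap. These comparisons share libraries. The drug differences of Penk were 0.12 in mutants and 0.13 in wild types, and its interaction was -0.0037 ± 0.114, with a limma adjusted p of 0.998.

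Averaged over both treatments in the same fit, an analysis chosen after the values were seen, the mutants were higher in Penk by 0.33 ± 0.0572 with an unadjusted p of 0.000103. The limma adjusted p of that average was 0.417, and 1 gene of the 16568 (0.00604%) was called, while 5.85% had an unadjusted p under 0.05. The row with the symbol Penk in the authors' deposited tables spans chr4:4133531-4188703, which reaches beyond the gene. The authors' deposited table gives that row a group FPKM of 13.2 in the vehicle wild types and 16.0 in the vehicle mutants, with a q of 0.9998. Under TAK-418 the authors' deposited table lists 14.7 and 18.2, with a q of 0.264. Markers of interneurons, a known source of enkephalin, had sums of 689 to 705 in vehicle wild types and 662 to 711 in vehicle mutants. The sums were 588 to 780 in treated wild types and 640 to 755 in treated mutants. For 13 dentate granule and hippocampal field markers they were 801 to 902, 821 to 834, 836 to 881 and 830 to 863 in that order. Within each treatment the genotypes overlapped in both lists. The part of cell composition in the level of Penk was not tested.

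Pdyn, the precursor of the dynorphins, which act mainly on the kappa opioid receptor, had the smallest SD relative to its mean of the members, 7.46% over the 14 libraries. It lies at chr2:129686565-129699844 on the minus strand. Its level was 8.61, 6.85 and 7.18 in the vehicle wild types and 7.83, 7.70 and 7.15 in the vehicle mutants, and with TAK-418 it was 8.28, 8.17, 8.68, 7.55 and 7.76 in the wild types and 8.33, 8.33 and 8.60 in the mutants. The genotypes overlapped in both treatments, while all treated mutants were above all vehicle mutants. That log2 difference was 0.14 ± 0.0787, with a limma adjusted p of 1.

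Tac1 was the member with the smallest unadjusted p for the drug in mutants. It encodes the precursor of substance P and neurokinin A, ligands of the tachykinin receptors, and lies at chr6:7554879-7565834 on the plus strand. Its level was 9.46, 11.9 and 9.39 in the vehicle wild types and 8.55, 8.34 and 9.25 in the vehicle mutants. It was 9.85, 9.34, 9.64, 10.3 and 11.2 in treated wild types and 10.5, 14.1 and 12.4 in treated mutants. Vehicle mutants were the lowest group, and all 3 lay below every vehicle and treated wild type as well as every treated mutant. Of all genes, 8.91% did not overlap between vehicle mutants and vehicle wild types. The share was 6.23% against treated wild types and 8.18% against treated mutants. The share separated from all of these groups at once was not computed. Sums of neocortex and subiculum markers by group are given with Grp.

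In mutants the drug difference of Tac1 was 0.45 ± 0.109 on the log2 scale, with a limma adjusted p of 0.544. In wild types it was -0.02 ± 0.0976, and the difference between these drug effects was 0.47 ± 0.146, with a limma adjusted p of 0.977. Treated mutants exceeded treated wild types by 0.26 ± 0.0976, with a limma adjusted p of 0.926. They exceeded vehicle wild types by 0.25 ± 0.109, with a limma adjusted p of 0.921, a value that was -0.035 when only the highest transcript of each gene was used. The authors' deposited tables list Tac1 at 7.90 in the vehicle wild types and 7.84 in the vehicle mutants, and at 8.62 in treated wild types and 9.81 in treated mutants.

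Alternative splicing splits the Tac1 transcripts. The β form holds all 7 exons and the γ form lacks exon 4, and both keep the exon that encodes substance P. Exon 4, 45 bases at chr6:7557216-7557260 on the plus strand of GRCm38, from the GENCODE M21 transcript, is shown in capitals because it is the whole difference between the forms.
Tac1 exon 4: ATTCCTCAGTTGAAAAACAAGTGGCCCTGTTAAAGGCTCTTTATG
Transcripts with this exon were assembled in 14 of 14 libraries and transcripts without it in 11. In the 11 libraries with both, the exon 4 form made up 34.6% to 66.2% of the abundance, with a median of 56.1%. Vehicle wild types 1 and 3 and treated wild type 2 list the exon 4 form alone. Whether the shorter form was missed by the assembly there was not tested.

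**Figure D3:**
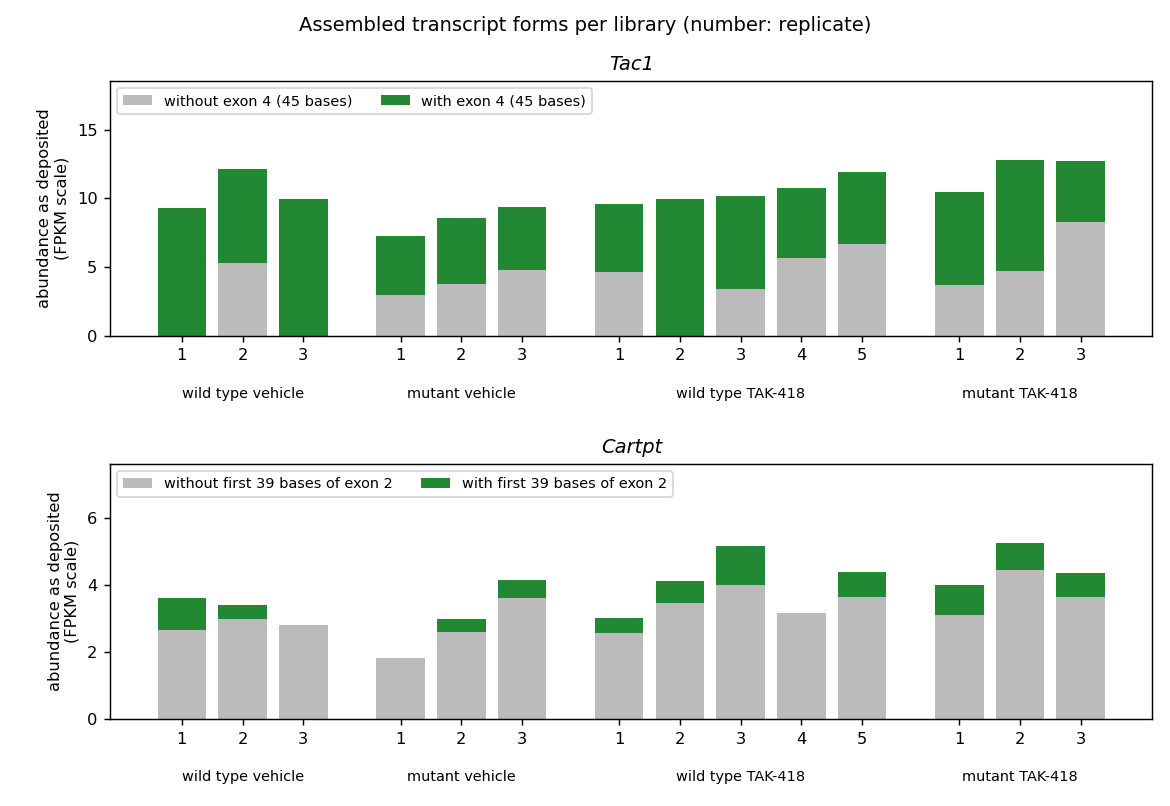
Abundance as deposited (FPKM scale, from 0) of assembled Tac1 and Cartpt transcripts with and without the alternative bases, stacked per library and ordered by group. Where both forms are present, the exon 4 form makes up 34.6% to 66.2% of Tac1 and the long form 11.8% to 26.2% of Cartpt, with 3 libraries in each gene showing 1 form alone.

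Tac2, at chr10:127724478-127731768 on the plus strand, encodes neurokinin B, the ligand of the receptor Tacr3. Its level was 5.21, 3.74 and 5.16 in the vehicle wild types and 3.31, 3.15 and 3.78 in the vehicle mutants, and with TAK-418 it was 5.32, 3.66, 4.82, 2.67 and 4.34 in the wild types and 5.24, 3.30 and 3.16 in the mutants. All groups overlapped. The difference of vehicle mutants from vehicle wild types was -0.37 ± 0.212 on the log2 scale, with a limma adjusted p of 0.934.

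Crh encodes corticotropin-releasing hormone, which starts the pituitary stress response and in the hippocampus is made by some interneurons. The gene lies at chr3:19693401-19695396 on the minus strand. Its level was 2.18, 1.93 and 1.64 in the vehicle wild types and 2.30, 2.15 and 2.09 in the vehicle mutants, and with TAK-418 it was 2.53, 2.44, 2.55, 2.14 and 2.32 in the wild types and 2.13, 2.61 and 3.29 in the mutants. Treated mutants were higher than vehicle wild types by 0.34 ± 0.118 on the log2 scale, with a limma adjusted p of 0.812. The ranges of these groups overlapped, since the lowest treated mutant lay under the highest vehicle wild type.

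Adcyap1 encodes PACAP, which acts through the receptor Adcyap1r1 and raises cyclic AMP. It lies at chr17:93199017-93206537 on the plus strand. Its level was 2.60, 3.05 and 4.14 in the vehicle wild types and 3.87, 3.56 and 3.19 in the vehicle mutants, and with TAK-418 it was 2.59, 3.05, 3.50, 2.48 and 3.09 in the wild types and 2.76, 4.05 and 4.63 in the mutants. All groups overlapped, and in none of the 7 contrasts was its unadjusted limma p under 0.05. The authors' deposited table lists 2.18 in treated wild types and 2.92 in treated mutants, with a q of 0.197.

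Nts encodes neurotensin and neuromedin N, peptides known for modulating dopamine neurons and, in the hippocampal formation, for cells of the subiculum. The gene lies at chr10:102481756-102490486 on the minus strand. Its level was 2.31, 6.005 and 2.88 in the vehicle wild types and 1.72, 3.34 and 1.59 in the vehicle mutants, and with TAK-418 it was 1.49, 2.07, 2.30, 1.59 and 3.06 in the wild types and 1.73, 3.58 and 3.39 in the mutants. All groups overlapped, and vehicle wild type 2 was the highest of the 14 libraries. That library also had Fezf2, a deep cortical layer factor, at 42.6 against 14.7 to 21.1 elsewhere, and Slc17a6, a vesicular glutamate transporter of mainly subcortical neurons, at 4.09 against 1.61 to 3.43. The summed level of 11 neocortex and subiculum markers, Fezf2 among them, was 113 there and 74.5 to 90.7 in the other libraries. Fezf2 alone gave 42.6 of the 113. The 13 thalamus and habenula markers, Slc17a6 among them, summed to 37.8 there, within the 32.2 to 39.1 of all libraries. The part of those markers in the level of Nts was not tested. The authors' deposited table lists Nts at 2.38 in the vehicle wild types and 1.36 in the vehicle mutants, with a q of 0.175.

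**Figure D4:**
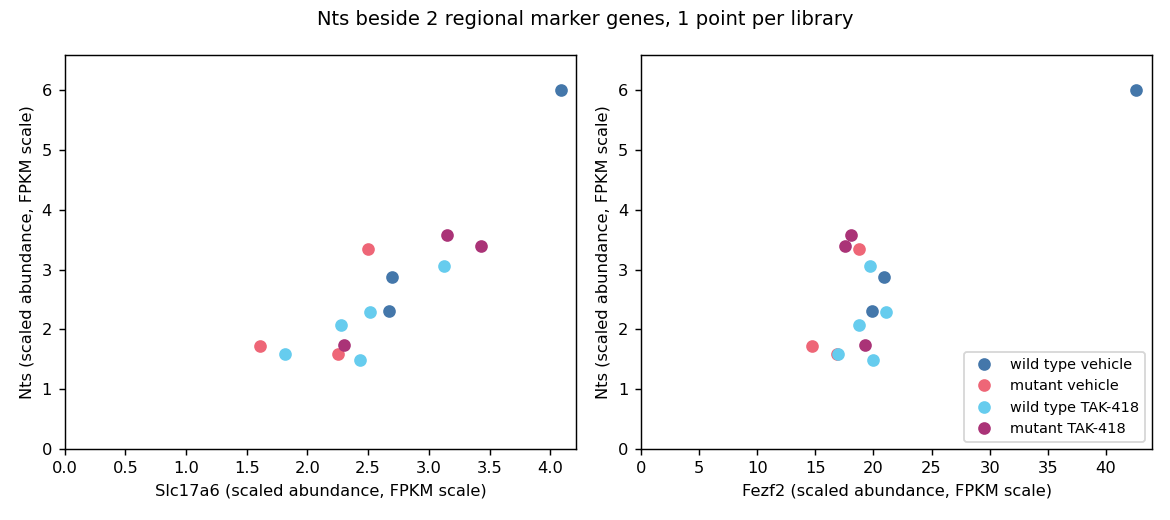
Nts against Slc17a6 (left) and Fezf2 (right), both axes scaled abundance on the FPKM scale, 1 point per library coloured by group. Vehicle wild type 2 is the highest for all 3 genes, at 6.005 for Nts, 4.09 for Slc17a6 and 42.6 for Fezf2.

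Grp, on chromosome 18, encodes gastrin-releasing peptide, the mammalian bombesin-like peptide whose receptor is Grpr. Its level was 25.1, 24.4 and 25.4 in the vehicle wild types and 18.0, 19.8 and 20.99 in the vehicle mutants. It was 33.5, 26.0, 23.0, 22.2 and 26.9 in treated wild types and 25.4, 24.6 and 21.7 in treated mutants. Vehicle mutants were the lowest group, below every library of the other 3 groups, while treated mutants overlapped both wild-type groups. The pairwise shares of all genes are those given for Tac1. The sum of 11 neocortex and subiculum markers was 74.5 to 78.7 in vehicle mutants and 78.6 to 85.3 in treated mutants. It was 85.9 to 113 in vehicle wild types and 82.0 to 90.7 in treated wild types. The part of those markers in the levels of Grp and Tac1 was not tested.

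The difference of vehicle mutants from vehicle wild types was -0.34 ± 0.124 on the log2 scale, with a limma adjusted p of 0.812. Without the 2 libraries with most choroid plexus RNA it was -0.27. Against treated wild types it was -0.40 ± 0.111, with a limma adjusted p of 0.341. Treated mutants exceeded vehicle mutants by 0.27 ± 0.124, with a limma adjusted p of 1. The locus over the exons of Grp, under the symbol Rax, was listed in the authors' deposited table at 20.4 in vehicle mutants and 28.3 in treated wild types, with a log2 fold change of -0.47 and a q of 0.00995. Of the loci in that comparison, 0.611% were called. Under vehicle alone the authors' deposited table lists 20.3 for mutants and 25.7 for wild types, with a q of 0.657. Grp itself has no row by symbol, so this locus was not counted among the calls of members.

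Cartpt encodes the CART peptides, which are linked to feeding and reward and in the hippocampus are known from the dentate gyrus. It lies at chr13:99898489-99901091 on the minus strand. Its level was 3.67, 3.32 and 2.65 in the vehicle wild types and 2.16, 2.91 and 4.08 in the vehicle mutants, and with TAK-418 it was 3.08, 3.87, 4.92, 3.05 and 4.11 in the wild types and 4.02, 5.79 and 4.24 in the mutants. Treated mutants were above all vehicle wild types and overlapped the other groups. The drug difference in mutants was 0.51 ± 0.201 on the log2 scale, with a limma adjusted p of 1.

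Cartpt is also spliced into a long and a short form, which in rodents give the long and short proCART. The long form keeps the first 39 bases of exon 2, at chr13:99900041-99900079 on the minus strand of GRCm38, shown in capitals as the difference between the forms.
Cartpt exon 2, first bases: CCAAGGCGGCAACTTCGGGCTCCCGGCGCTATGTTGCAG
The short form was assembled in 14 libraries and the long form in 11, where it made up 11.8% to 26.2% of the abundance, with a median of 15.9%. Vehicle wild type 3, vehicle mutant 1 and treated wild type 4 list the short form alone. Libraries with both forms thus held mostly the short form for Cartpt and a mixture for Tac1.

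Across the set, 0 of the 9 members other than Trh passed a limma adjusted p of 0.05 in any of 7 contrasts. These were the 6 group comparisons and the interaction. The share of all genes called was 0% for genotype under vehicle, 0.0121% for genotype under TAK-418, 0.00604% for the drug in mutants, 0.00604% for the drug in wild types, 0.00604% for treated mutants against vehicle wild types, 0% for vehicle mutants against treated wild types and 0.00604% for the interaction. Leaving Trh aside, since those of its values rest on the libraries that chose it, Penk and Grp had an unadjusted limma p under 0.05 for genotype under vehicle, where 5.45% of all genes did. Penk and Tac1 did for genotype under TAK-418 (background 4.93%), and Tac1, Grp and Cartpt for the drug in mutants (background 4.39%). No other member did for the drug in wild types, against 8.44% of all genes. Penk, Tac1 and Crh did for treated mutants against vehicle wild types (background 5.39%), Penk and Grp for vehicle mutants against treated wild types (background 9.23%), and Tac1 for the interaction (background 4.44%).

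By direction, and leaving out Trh because its choice fixes its direction, 4 of 9 members were higher and 5 lower in vehicle mutants than in vehicle wild types, with a median log2 difference of -0.08 against 0.00 for all genes. Under TAK-418, 7 were higher and 2 lower in mutants, with a median of 0.25 against 0.00. The drug values were above 0 for 9 of 9 in mutants, with a median of 0.20 against 0.00, and for 5 of 9 in wild types, with a median of 0.06 against 0.00. These comparisons share libraries, such as the vehicle mutants in the first and the third. The groups did not overlap for Penk, Tac1 and Grp in genotype under vehicle (8.91% of all genes in either direction) and for Penk under TAK-418 (4.57%). They did not overlap for Pdyn, Tac1 and Grp for the drug in mutants (8.18%), and for 0 members for the drug in wild types (6.34%). They did not overlap for Penk and Cartpt in treated mutants against vehicle wild types (9.52%), nor for Penk, Tac1 and Grp in vehicle mutants against treated wild types (6.23%).

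**Figure D5:**
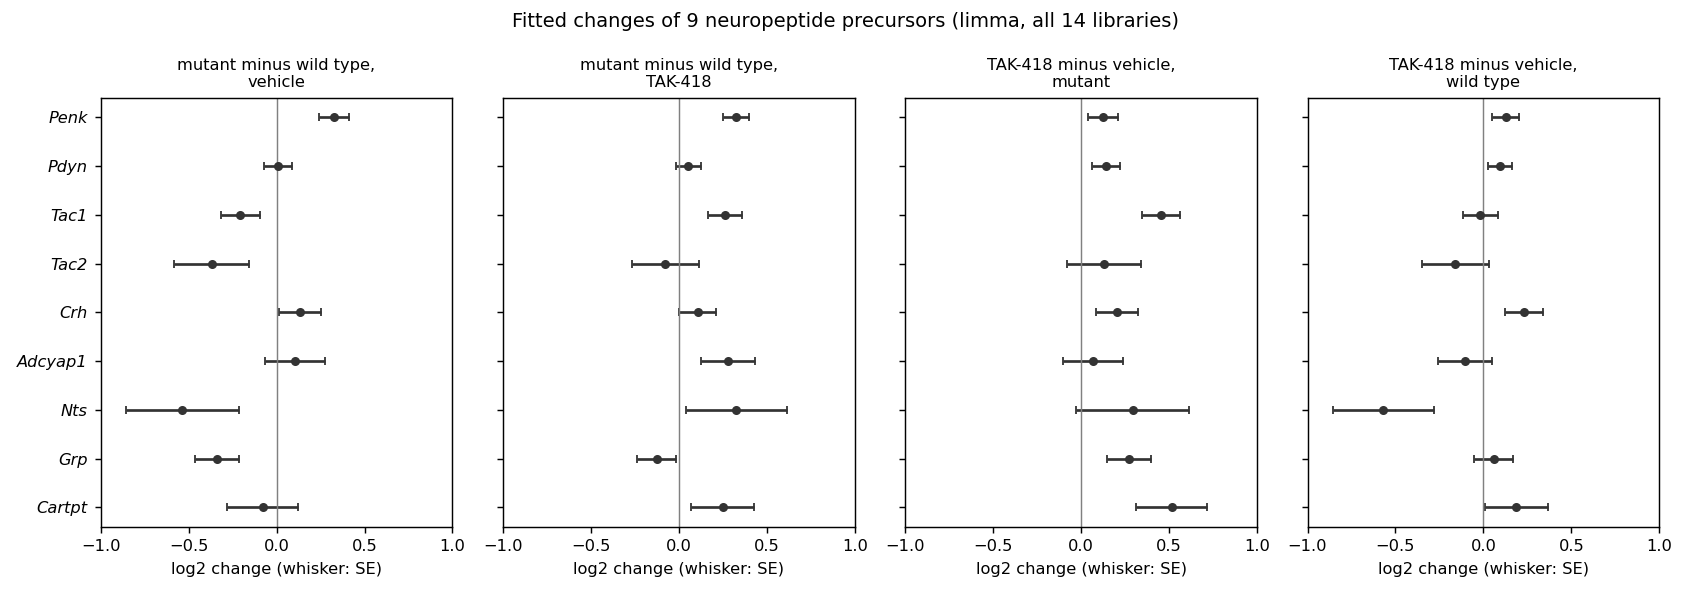
Log2 change on the log2(value + 0.9) scale (points) with its SE (whiskers) for 9 members, without Trh, in 4 limma contrasts fitted on all 14 libraries. Penk sits at 0.33 in both genotype panels, and all 9 points, from the same libraries, lie to the right of 0 for the drug in mutants. Of all genes, 51.4% were higher in that contrast.

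The receptors and peptidases of these peptides were given by a list of 19 genes, of which 16 were tested. None passed a limma adjusted p of 0.05 in the 7 contrasts. The highest levels over the 14 libraries were Sort1 at 126 and Ntsr2 at 101, which both bind neurotensin, and the PACAP receptor Adcyap1r1 at 48.1. For vehicle mutants against vehicle wild types, the opioid receptor gene Oprd1 had a log2 difference of -0.44 ± 0.168 (limma adjusted p 0.814), and the VIP and PACAP receptor Vipr1 one of -0.23 ± 0.0810 (limma adjusted p 0.776). In wild types TAK-418 gave values of 0.17 ± 0.0518 for Adcyap1r1 (limma adjusted p 0.408), 0.33 ± 0.121 for Ntsr1 (limma adjusted p 0.476) and 0.23 ± 0.101 for Crhr1 (limma adjusted p 0.574). The receptors of Trh were at 3.34 for Trhr, and at 0 in all libraries for Trhr2.

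The enzymes and vesicle proteins that make peptides from precursors were given by 18 genes, all tested and 0 called in the 7 contrasts. Cpe, the carboxypeptidase that trims the cut peptides, was highest at 1980, followed by Pcsk1n at 426 and the granin Chgb at 346. The convertase Pcsk1 differed by -0.18 ± 0.0602 in vehicle mutants (limma adjusted p 0.725). In wild types the drug values were 0.14 ± 0.0431 for Ptprn (limma adjusted p 0.400) and 0.15 ± 0.0669 for Furin (limma adjusted p 0.584).

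Of 35 other neuropeptide precursors, 22 were tested and 0 called in the 7 contrasts. Cck at 355, Sst at 273 and Npy at 79.9 were far above the members described here. The log2 difference of Npy in vehicle mutants was 0.38 ± 0.117 (limma adjusted p 0.693) and in treated wild types 0.31 ± 0.105 (limma adjusted p 0.447). Gnrh1 had a difference of 0.66 ± 0.269 in vehicle mutants (limma adjusted p 0.857), where 2 of 3 vehicle wild types were at 0. Gal was at 0.45 ± 0.182 for the drug in wild types (limma adjusted p 0.520). Nmb was at -1.60 ± 0.499 (limma adjusted p 0.420), with 3 of the 5 treated wild types listed at 0 and the other 2 at 3.00.

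The genes whose pattern over the 14 libraries was most like that of each member are given by Pearson r of log2 values, among 12826 protein-coding genes with a value in all libraries. Such correlations describe libraries that share depth, tissue composition and groups. The genes named are the highest of 12826 candidates over only 14 libraries, so a high r can also come from the selection alone. How high an r the selection alone gives was not tested. For Penk they were Bok, Vit and Cacng5, at 0.85, 0.84 and 0.84. For Nts they were Rpl26, Slc17a6 and Paip2, at 0.88, 0.86 and 0.84, and for Grp Sel1l3, Ryr1 and Usp34, at 0.89, 0.87 and 0.85. For Tac1 they were Vstm5, Kcnab3 and Amn, for Tac2 Tspan5, Evc2 and Aplp2, and for Cartpt Mllt3, Cib2 and Psrc1. For Pdyn they were Ica1, Gfra2 and Calb2, for Crh Ncdn, Nrtn and Carmil2, and for Adcyap1 Pus1, U2af1 and Cabcoco1, the first of each at 0.84, 0.84 and 0.83. Among the members, Pdyn and Crh had the highest r of 0.73, followed by Tac1 with Cartpt and Tac2 with Grp, both at 0.64. Penk had its lowest r with Tac2, at -0.57, and with Grp, at -0.50.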

How the data were processed

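RNA of 14 hippocampus libraries was sequenced, and groups were taken from the labels. Per the file headers, the authors assembled transcripts per library with CLASS 2.1.7, and each deposited transcript carries an abundance score, whose FPKM scale was worked out from the values. Per the submitters' processing notes, TopHat2 2.1.0, FastQC and mm10 were also used, with no role given. Per the file headers, the authors' deposited tables hold 1 FPKM value per group, a log2 fold change, a p-value and a q-value per locus, with no spread between mice. Replicate numbers only name libraries.

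Here the transcripts were assigned to GENCODE M21 genes (GRCm38) by a shared intron, or, for single-exon transcripts, by 50% overlap with exons on the same strand. Abundances were summed per gene and scaled by the median of ratios over 13273 genes, with factors of 0.849 to 1.07. The step between the values of single-exon transcripts gave the relative depth, with 92.4% to 99.5% of checked values whole within 0.05. How reads shared by overlapping or near-identical genes were divided is not given in the sources used here. Genes listed in 3 or more libraries, 16568 in all, entered the test as log2(value + 0.9), so changes of low genes are understated. The pseudocount of 0.9 was set at percentile 10 of all nonzero values. One limma 3.58.1 fit (R 4.3.3, lmFit and eBayes with trend) of 4 group means over the 14 libraries gave 7 contrasts, adjusted by Benjamini-Hochberg to 0.05. A simulation of genotype under vehicle held 16568 genes, of which 200 were changed. Recovery was 67% for a log2 change of 1 and 91% for a log2 change of 2. The simulation gave 0 wrong signs, and 4 unchanged genes were called. Smaller changes were not simulated. The recovery rate at the sizes seen for members other than Trh, such as 0.33 for Penk under vehicle, is therefore unknown. Python 3.11.15, numpy 2.4.6, pandas 2.3.3 and matplotlib 3.10.9 did the rest.

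The members and lists were chosen with earlier results of these data known, and the summaries without Trh or Nkx2-1 after seeing the data. Named were all members, with statistics for the member of smallest unadjusted p in each contrast and each pair with an unadjusted p under 0.05 or a q under 0.05. Other pathway genes were named by the 3 highest levels of a list and by an unadjusted p under 0.05 for genotype under vehicle or the drug in wild types, and like patterns by the 3 highest r. Values of other members and contrasts are given as description. Alternatives were pseudocount, filter, scaling, transcript choice, fit on the compared groups alone, each library left out, the 2 libraries with most choroid plexus genes left out, and a stricter or recomputed q.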

Additional observations from a re-analysis of the deposited data

How the results depend on the processing

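Under the 22 other settings of each fit, 0 of the 9 members other than Trh passed the limma threshold in any of the 7 contrasts, leaving out each library included. Of 156 recomputed counts of members, 1 moved: at a q of 0.01 in place of 0.05, the authors' deposited tables call 0 members in place of 2, both of which were Trh. The recomputed differences covered 15 pairs of member and contrast. Those of Trh, for the drug in wild types and the interaction, use the libraries that chose it and support nothing. Of 330 recomputed differences, 329 kept their direction. The exception was Tac1 in treated mutants against vehicle wild types, which became -0.035 with only the highest transcript of each gene, from 0.25. That setting drops the lower Tac1 transcripts, as deposited at 3.73, 4.71 and 4.40 in treated mutants 1, 2 and 3. In vehicle wild types 2 and 3 these were at 5.32 and 0.930, and vehicle wild type 1 listed 1 transcript. Their part in the change was not tested. With libraries left out in turn, the genotype difference of Penk was 0.30 to 0.35 under vehicle and 0.27 to 0.42 under TAK-418, and that of Grp under vehicle was -0.39 to -0.28. The drug difference of Tac1 in mutants was 0.36 to 0.55 and that of Cartpt 0.34 to 0.70. Tac1 in treated mutants was 0.17 to 0.37 over treated wild types and 0.15 to 0.35 over vehicle wild types, and Crh 0.22 to 0.45 over the latter. A pseudocount 10 times larger shrank values, to 0.18 for Cartpt and 0.26 for Tac1 in the drug difference of mutants, and to 0.096 for Crh in treated mutants over vehicle wild types. Without scaling, Penk in vehicle mutants over treated wild types was 0.094 in place of 0.20, where the median of all genes was at -0.093. With only the highest transcript the interaction of Tac1 was 0.93 in place of 0.47. The lowest limma adjusted p of Penk over all settings was 0.151, in treated mutants against vehicle wild types without treated mutant 1. No paired analysis was possible because the labels carry no replicate number. Depth is known only relative to the other libraries, and with 3 libraries in 3 of the 4 groups, changes of low genes such as Trh cannot be told from assembly failures.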
